A study of Mus musculus with 8 samples.

Results

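Levels of 10 costimulatory and TNF superfamily receptor mRNAs were measured in cultured lung group 2 innate lymphoid cells (ILC2s). The genes are Icos, Cd28, Tnfrsf4, Tnfrsf9, Tnfrsf18, Tnfrsf25, Tnfrsf1a, Tnfrsf1b, Tnfrsf8 and Fas, chosen by gene symbol from the 23183 genes counted in each library. All 10 had enough reads to be tested. The ILC2s came from lungs of C57BL/6 mice (C57BL/6 J in the methods) of both sexes, 6 to 10 weeks old, that had been given recombinant mouse IL-33, and they were enriched with a magnetic kit and kept in medium with IL-2, IL-7 and IL-33 at 10 ng/mL each. Of the 8 cultures, 4 were given Yoda1 at 5 µM for 3 h. Yoda1 is a small molecule that opens the mechanosensitive calcium channel Piezo1. The other 4 cultures received the vehicle, 0.1% DMSO. Both groups therefore carried the same cytokine stimulation and the same genotype, and there was no unstimulated group. Whether the 4 samples of a group were separate mice or cultures of 1 pool is not stated, so the p-values measure the spread between these samples, which may be technical.

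Receptors of these families give lymphocytes a further signal beside that of the antigen receptor or, in ILC2s, beside cytokines such as IL-33 and IL-7. Icos and Cd28 are immunoglobulin superfamily receptors that signal through phosphoinositide 3-kinase. The TNF receptor superfamily members bind trimeric ligands and recruit TRAF adaptors, which lead to NF-kB, or, in the case of the death domain receptors Fas, Tnfrsf1a and Tnfrsf25, can also recruit death signalling proteins. ICOS with its ligand ICOSL, OX40 (Tnfrsf4), GITR (Tnfrsf18) and DR3 (Tnfrsf25) are known to act on ILC2 survival, proliferation and cytokine output in the lung.

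Total counts per library ran from 12438009 to 19534653. All 14 ILC2 markers on the list were tested and 7 rose, and their summed level was 18510 to 19028 CPM with DMSO and 20843 to 21243 CPM with Yoda1, where CPM is counts scaled to a common library total, with factors set by TMM (trimmed mean of M-values). The 7 that rose were Il13, Il5, Areg, Arg1, Il1rl1, Thy1 and Ptprc. The sum holds cytokine mRNA, with Il13 at 5431 and 6667 CPM and Il5 at 3337 and 3672 CPM (DMSO and Yoda1 means). The other 7 were not called, among them Gata3 (564.9 CPM in both groups), Id2, Rora and Klrg1. Il7r and Il2ra, also not called, had log2 differences of 0.11 and 0.086 (edgeR adjusted p = 0.0574 and 0.115). Il17rb had -0.14 (edgeR adjusted p = 0.358). The labels call the cells ILC2s, and markers of other lymphocytes were also counted. Of 12 T cell markers, 9 were matched and tested and 0 passed the threshold by edgeR's quasi-likelihood test (1 at an unadjusted p under 0.05, and 0 with DESeq2 or limma-voom), with summed levels of 90.7 to 97.7 CPM with DMSO and 95.2 to 104 CPM with Yoda1. All 6 NK and ILC1 markers were tested and 3 rose (Tbx21, Eomes and Prf1), with summed levels of 441 to 495 and 506 to 534 CPM. Of the other marker lists, 12 genes were tested and 1 was called, Zbtb46 of dendritic cells, which fell from 5.40 ± 0.573 to 3.95 ± 0.354 CPM (SD, n = 4 each; edgeR adjusted p = 0.0335). The same lists hold genes that were clearly counted, with mean levels of 155 and 156.5 CPM (DMSO and Yoda1) for H2-Ab1, 6.89 and 6.94 CPM for Itgax, 5.97 and 6.30 CPM for Cd79b, 79.1 and 75.3 CPM for Kit and 220.2 and 219 CPM for Pecam1. By contrast Ms4a1 of B cells, Csf1r, Lyz2 and Mrc1 of macrophages, and Epx and Prg2 of eosinophils had at most 3 counts in any library, and Pax5, Sftpc and Col3a1 were at 0 in all 8. In bulk RNA, fewer cells of a type and less RNA per cell cannot be told apart. On the second principal component, DMSO replicate 1 (11.3) and Yoda1 replicate 3 (14.3) stood at the upper end and Yoda1 replicate 2 (-10.2) at the lower end. Values without DMSO replicate 1 and Yoda1 replicate 3 together are given where they matter.

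Some sequences are shown because the results return to them. For Icos, the member with a 3′ untranslated region of 2606 bases (the APPRIS principal transcript of GENCODE M21), the letters TTCNNNGAA were found 3 times in that region, on the strand of the transcript. Such letters can form part of the stem of a constitutive decay element, a hairpin that the roquin proteins Rc3h1 and Rc3h2 are known to bind in Icos mRNA. The pattern leaves its 3 middle bases open, and whether any of these matches forms such a hairpin was not tested. Of 11233 tested coding genes, 4.22% held 3 or more such matches. This share and those below are over regions of all lengths, with a median of 1035 bases. Longer regions, such as those of Icos and Cd28, can hold more matches by chance. The sites lie in GRCm38 at chr1:60998554-60998582, chr1:60999417-60999445 and chr1:60999479-60999507 on the plus strand, with the match in capitals.
Icos site 1: tagtaaacatTTCTCAGAAacaaaagcaa
Icos site 2: ctttactctgTTCCTTGAAggatccccat
Icos site 3: agaacaaaatTTCTGTGAAataaaatctg
The third site carries TTCTGTGAA, which 2.63% of the same genes held at least once. No match to TTCNNNGAA was found in the 3′ untranslated regions of Tnfrsf4, Tnfrsf18, Tnfrsf25, Tnfrsf1a, Tnfrsf8 and Fas, while Tnfrsf1b held 2 and Cd28 and Tnfrsf9 1 each. The AU-rich letters ATTTA, which TTP (Zfp36) and its relatives bind, occurred 6 times in the 3574 bases of Cd28, a number that 16.2% of the tested coding genes reached or passed.

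Tnfrsf8 and Tnfrsf1b are neighbours on the minus strand of chromosome 4, and their promoters are shown because these neighbours gave different results. Each line gives the 250 bases before the RefSeq start, in the direction of transcription and with no GENCODE exon inside, from chr4:145315165-145315414 for Tnfrsf8 and chr4:145246871-145247120 for Tnfrsf1b (RefSeq sequences, GRCm38.p6).
Tnfrsf8: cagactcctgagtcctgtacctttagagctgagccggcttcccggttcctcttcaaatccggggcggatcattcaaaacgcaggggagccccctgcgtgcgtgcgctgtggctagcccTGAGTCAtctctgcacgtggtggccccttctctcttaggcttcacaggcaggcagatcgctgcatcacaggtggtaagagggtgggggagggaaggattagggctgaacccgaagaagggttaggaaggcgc
Tnfrsf1b: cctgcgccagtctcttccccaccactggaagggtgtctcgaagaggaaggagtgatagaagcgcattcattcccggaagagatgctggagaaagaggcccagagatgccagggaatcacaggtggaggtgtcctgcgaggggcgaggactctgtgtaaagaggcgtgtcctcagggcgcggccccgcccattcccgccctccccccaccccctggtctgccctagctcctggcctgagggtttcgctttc
Capitals mark a match to the AP-1 letters TGANTCA, which read the same on both strands and occur in 6.75% of 32851 RefSeq windows of that length. In all, 4 motifs were searched on both strands, the others being GGAAA for NFAT (in 55.6% of windows), GGNNNTTCC for NF-kB (15.7%) and GCGNGGGCG for EGR (4.70%). No match to the 4 was found in the Tnfrsf1b window. RefSeq windows were matched for 8 of the 10 receptors, all but Icos and Cd28. The AP-1 letters were also found in the window of Fas and in that of 1 of the 2 starts of Tnfrsf9. The NF-kB letters were found for Tnfrsf1a and for 1 of the 2 starts each of Tnfrsf9 and Tnfrsf25. An NFAT match was found for Tnfrsf4, Tnfrsf9, Tnfrsf18, Tnfrsf25 and Fas. The windows of Tnfrsf4 and Tnfrsf18, also neighbours with different results, hold GENCODE exon bases and are not shown. Any link between these letters and the changes below was not tested.

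Levels of different genes were compared per length, as CPM per kb of merged exons. Tnfrsf18 was the most abundant of the 10 receptors at 153 ± 5.16 CPM per kb (SD over all 8 libraries), which is above 97.8% of the 11776 tested genes with an annotated length. Icos followed at 68.3 ± 4.80 and Tnfrsf9 (4-1BB) at 58.1 ± 1.99 CPM per kb, and the ranges of these 2 met (62.0 to 73.8 for Icos and 55.1 to 62.0 for Tnfrsf9). Tnfrsf1b (TNF receptor 2), Tnfrsf25, Tnfrsf8 (CD30) and Tnfrsf4 had 49.1, 46.7, 45.8 and 41.6 CPM per kb, and each overlapped its neighbour in this order. The order in the middle depends on the length used: with the longest coding transcript in place of merged exons, Tnfrsf9 (74.8 CPM per kb) stood above Icos (72.3), and Tnfrsf25 (64.0) and Tnfrsf4 (55.1) stood above Tnfrsf1b (49.1) and Tnfrsf8 (46.4), while Tnfrsf18 stayed highest and Tnfrsf1a and Cd28 lowest. Fas was lower at 26.7 ± 2.06 CPM per kb, above 84.6% of tested genes. Tnfrsf1a (TNF receptor 1) and Cd28 were at the bottom with 4.17 ± 0.408 and 3.30 ± 0.383 CPM per kb, above 39.1% and 34.1% of tested genes, and their ranges overlapped. Between Tnfrsf18 and Cd28 the level per length differed 46.4-fold.

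**Figure D1:**
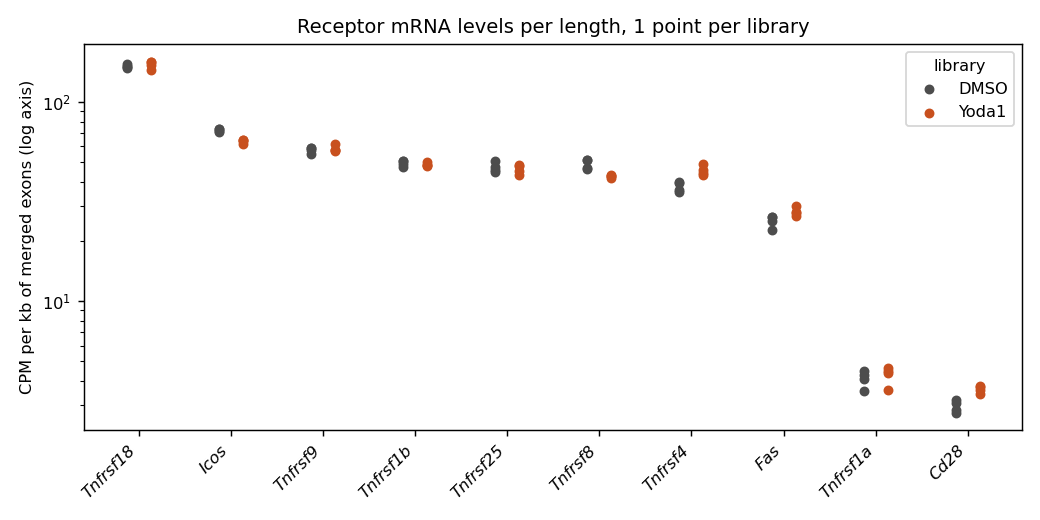
Level of each receptor mRNA in CPM per kb of merged exons on a log axis, with 1 point per library, DMSO in grey and Yoda1 in orange, ordered by the mean. Tnfrsf18 stands highest near 153 CPM per kb, a middle group from Icos to Tnfrsf4 spans 68.3 to 41.6, and Tnfrsf1a and Cd28 lie near 4.

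Yoda1 changed the mRNA of 4 of the 10 receptors, of which 2 rose (Cd28 and Tnfrsf4) and 2 fell (Icos and Tnfrsf8), by edgeR's quasi-likelihood test at a Benjamini-Hochberg adjusted p under 0.05 over all 12239 genes tested. Over all tested genes 10.9% were called, with 6.04% higher and 4.84% lower. That split depends on the scaling: 55.5% of the calls were higher with TMM, 40.6% with library size alone and 34.5% with upper-quartile factors, while the count of 2 receptors higher and 2 lower was the same in each. The receptors were chosen with earlier results of these data known, so their share of calls is not independent of these data. The changes were small, with log2 fold changes from -0.20 to 0.29. Their median over the 10 receptors was 0.025, beside -0.0053 over all genes tested, and 6 of the 10 values were above 0. In 5 of the 10 receptors (the 4 called and Fas) the groups did not overlap with TMM scaling, and this held for 15.5% of all genes tested. For Fas it depended on the scaling.

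**Figure D2:**
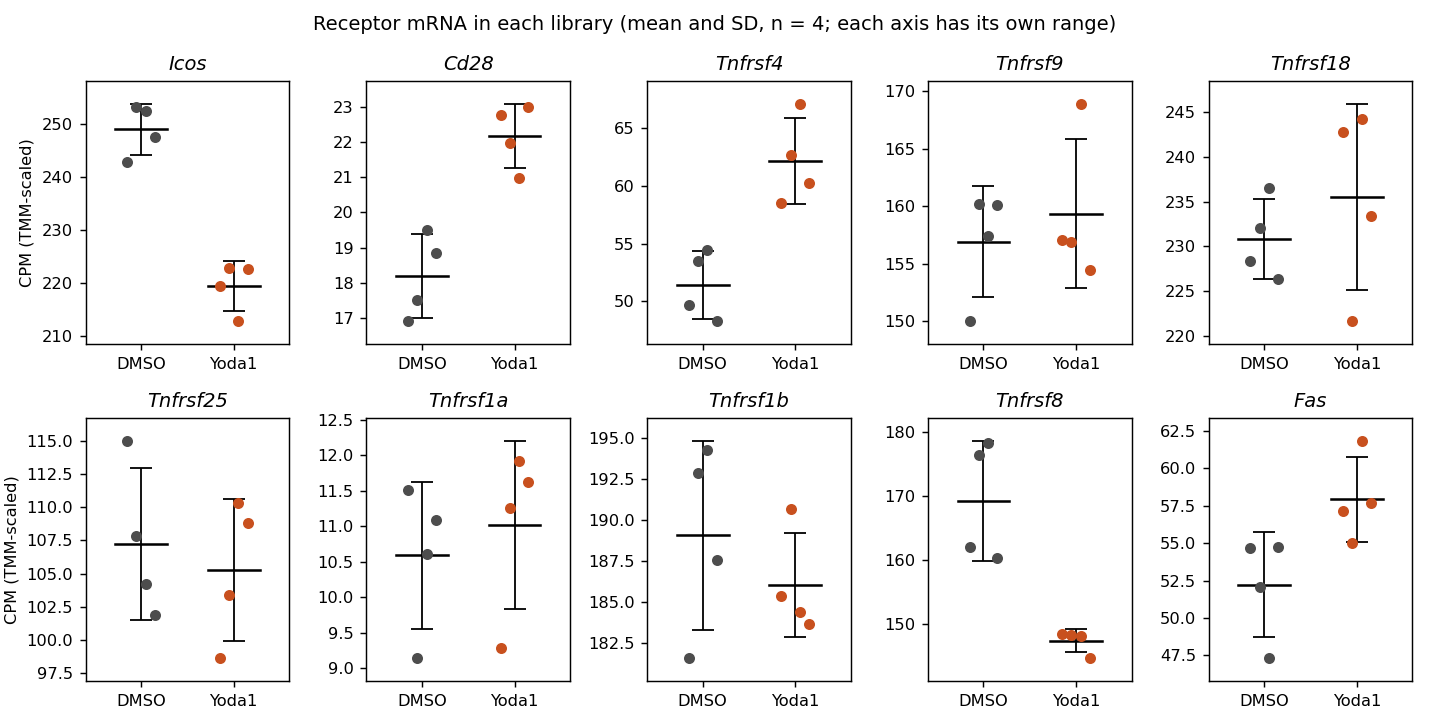
TMM-scaled CPM of the 10 receptors in each library, with 1 point per library, the group mean as a line and the SD as bars (n = 4 per group). Each panel has its own axis, which does not start at 0. All 4 Yoda1 libraries lie below all 4 DMSO libraries for Icos and Tnfrsf8 and above them for Cd28, Tnfrsf4 and Fas.

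Icos, the inducible costimulator, lies at chr1:60977927-61000320 on the plus strand. It had 243, 253, 252 and 247.5 CPM in the 4 DMSO libraries and 219, 223, 213 and 223 CPM in the 4 Yoda1 libraries, from 2718 to 4625 counts. Every Yoda1 library was thus lower than every DMSO library. The mean fell from 249.0 ± 4.82 to 219 ± 4.69 CPM (SD, n = 4 each), and Icos fell by 0.18 on the log2 scale with a standard error of 0.035 (edgeR adjusted p = 0.000601). The two-sided exact permutation test on log2 CPM gave p = 0.0286, the smallest value that 4 libraries against 4 allow. Leaving out each library in turn gave log2 fold changes between -0.19 and -0.17, with adjusted p of at most 0.00492. The paper also measured ICOS protein by flow cytometry after Yoda1 and does not name it among the altered markers.

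Cd28, the classical costimulatory receptor of T cells for CD80 and CD86, lies on the same strand 204567 bases before Icos, at chr1:60716800-60773359. DMSO libraries had 16.9, 17.5, 19.5 and 18.9 CPM and Yoda1 libraries 22.8, 21.98, 20.99 and 22.99 CPM, from 255 to 447 counts. The Yoda1 libraries were all higher. Its mean rose 1.22-fold from 18.2 ± 1.19 to 22.2 ± 0.903 CPM (SD, n = 4 each). On the log2 scale Cd28 rose by 0.29 with a standard error of 0.071 (edgeR adjusted p = 0.00684; exact permutation p = 0.0286). Since Cd28 is also a T cell gene, the T cell markers bear on it, and their summed levels overlapped between the groups as given above. Of the CD3 subunit genes, Cd3g was at 46.9 ± 2.05 and 52.2 ± 3.19 CPM (SD, n = 4 each; edgeR adjusted p = 0.0616), Cd3d at 9.08 ± 1.11 and 9.83 ± 1.10 CPM (adjusted p = 0.577) and Cd3e at 6.50 ± 0.340 and 5.81 ± 0.452 CPM (adjusted p = 0.399). Over the 9 T cell markers, 6 log2 fold changes were above 0 and those of Cd3e, Cd8b1 and Foxp3 below 0, and the part of such cells in the Cd28 result was not tested.

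Tnfrsf4 encodes OX40, the receptor of OX40L (Tnfsf4), and lies at chr4:156013843-156016612. It had 49.6, 53.5, 54.4 and 48.3 CPM with DMSO and 58.5, 62.6, 67.1 and 60.3 CPM with Yoda1. All Yoda1 libraries were higher, Yoda1 replicate 3 the most. The mean rose 1.21-fold from 51.4 ± 2.96 to 62.1 ± 3.72 CPM (SD, n = 4 each). The log2 scale gave 0.27 with a standard error of 0.052 for Tnfrsf4 (edgeR adjusted p = 0.000594; exact permutation p = 0.0286). Without DMSO replicate 1 and Yoda1 replicate 3 it was 0.22, with an edgeR adjusted p of 0.00485.

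Tnfrsf8 encodes CD30, the receptor of CD30L (Tnfsf8), and lies at chr4:145267137-145315164. Its levels were 162, 176.5, 178 and 160 CPM with DMSO and 148, 148, 148 and 145 CPM with Yoda1. The Yoda1 libraries lay close together below the DMSO libraries, which were more spread. The mean fell from 169 ± 9.43 to 147 ± 1.83 CPM (SD, n = 4 each), and Tnfrsf8 fell by 0.20 on the log2 scale with a standard error of 0.040 (edgeR adjusted p = 0.000861; exact permutation p = 0.0286).

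Fas, the death receptor of Fas ligand, at chr19:34290666-34327772, did not pass the threshold. It had 54.7, 52.1, 47.3 and 54.8 CPM with DMSO and 57.2, 55.0, 61.9 and 57.7 CPM with Yoda1. The groups did not overlap, but the highest DMSO library and the lowest Yoda1 library were nearly level. On the log2 scale the difference was 0.15, with a standard error of 0.052 (edgeR p = 0.00773, adjusted p = 0.0633; exact permutation p = 0.0286). With library size alone or upper-quartile factors the exact permutation p was 0.0857, as the groups then overlapped. The adjusted p crossed the threshold without the filter on low counts (0.0411), without DMSO replicate 1 (0.0296) and without Yoda1 replicate 2 (0.0434). With any of the other 6 libraries left out it stayed above it, at up to 0.236 without DMSO replicate 3, where the log2 difference was 0.10.

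The other 5 receptors overlapped between the groups and did not pass the threshold. Tnfrsf18 (GITR) was at 231 ± 4.49 CPM with DMSO and 235.5 ± 10.5 CPM with Yoda1 (SD, n = 4 each), where the log2 difference was 0.028 with an interval of 2 standard errors on each side from -0.046 to 0.10 (edgeR adjusted p = 0.698). Tnfrsf9, a costimulatory receptor of NF-kB signalling, was at 157 ± 4.77 and 159 ± 6.45 CPM, where the log2 difference was 0.021 with an interval from -0.056 to 0.099 (edgeR adjusted p = 0.793). The signs of both turned with upper-quartile factors, to -0.0026 for Tnfrsf18 and -0.0095 for Tnfrsf9. Tnfrsf25, the receptor of TL1A, was at 107 ± 5.71 and 105 ± 5.32 CPM, where the log2 difference was -0.026 with an interval from -0.11 to 0.063 (edgeR adjusted p = 0.771). Its sign turned without DMSO replicate 1 (0.0085) and without Yoda1 replicate 1 (0.0019).

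The TNF receptors differed in precision. Tnfrsf1b, found mostly on haematopoietic cells, was at 189 ± 5.77 and 186 ± 3.15 CPM, where the log2 difference was -0.023 with an interval from -0.096 to 0.049 (edgeR adjusted p = 0.750). Tnfrsf1a, the broadly expressed death domain receptor, had only 115 to 226 counts per library and was at 10.6 ± 1.03 and 11.02 ± 1.19 CPM. Its interval was wider, from -0.12 to 0.27 around 0.072 (edgeR adjusted p = 0.707), and its upper end was level with the rise of Tnfrsf4. The log2 fold change of Tnfrsf1a itself ran from 0.0016 without DMSO replicate 2 to 0.14 without Yoda1 replicate 1.

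**Figure D3:**
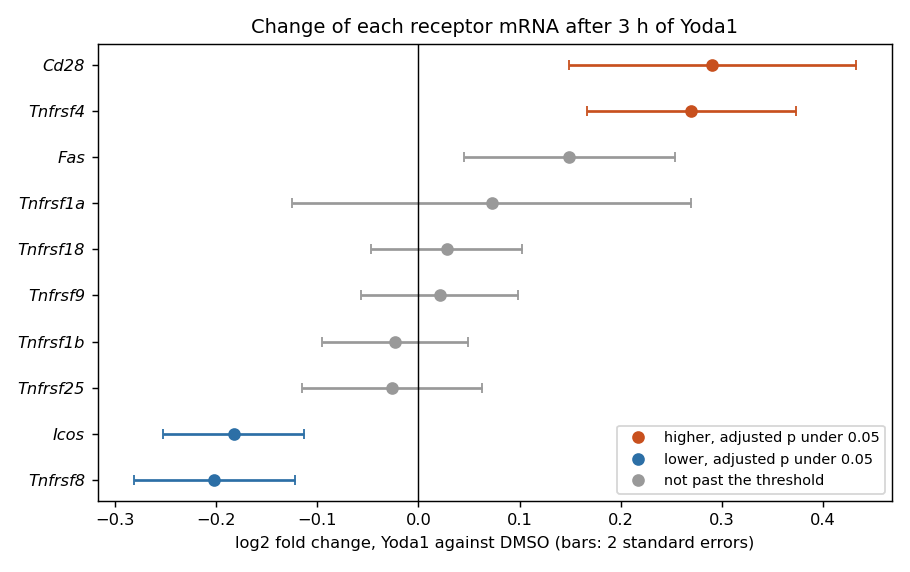
Log2 fold change of each receptor, Yoda1 against DMSO, with bars of 2 standard errors on each side (n = 4 per group). Cd28 and Tnfrsf4 lie to the right at 0.29 and 0.27, Icos and Tnfrsf8 to the left at -0.18 and -0.20, and the intervals of Tnfrsf18, Tnfrsf9, Tnfrsf25, Tnfrsf1a and Tnfrsf1b cross 0.

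A ratio of counts within a library needs no scaling between libraries, and 5 pairs were compared, with p-values adjusted over the 5 by Benjamini-Hochberg. The ratio of Icos to Cd28 was 14.4, 14.4, 12.9 and 13.1 with DMSO and 9.62, 10.1, 10.1 and 9.67 with Yoda1. It was lower in every Yoda1 library, by -0.47 ± 0.047 (SE) on the log2 scale (two-sided exact permutation test, p = 0.0286, adjusted 0.0357). Ctla4, the inhibitory receptor for CD80 and CD86, lies between Cd28 and Icos on the same strand, 113640 bases from Cd28 and 62094 bases from Icos. The ratio of Icos to Ctla4 went from 16.0 ± 1.72 to 8.86 ± 1.14 (SD, n = 4 each), a difference of -0.85 ± 0.12 on the log2 scale (exact permutation p = 0.0286, adjusted 0.0357). Of these 3 adjacent receptor genes, Cd28 and Ctla4 thus rose and Icos fell. The groups did not overlap in CPM for any of the 3, so the ratios of Icos to Cd28 and to Ctla4 had to separate as well. Their p-values therefore add nothing to those of the single genes.

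Tnfrsf4 and Tnfrsf18 are also neighbours, 9551 bases apart on the plus strand of chromosome 4. Their ratio rose from 0.223 ± 0.0087 to 0.264 ± 0.018 (SD, n = 4 each), by 0.24 ± 0.058 (SE) on the log2 scale (exact permutation p = 0.0286, adjusted 0.0357). For Tnfrsf8 and Tnfrsf1b, 20266 bases apart, the ratio was 0.892, 0.915, 0.918 and 0.855 with DMSO and 0.800, 0.778, 0.803 and 0.787 with Yoda1. The groups did not overlap, with a difference of -0.18 ± 0.026 on the log2 scale (exact permutation p = 0.0286, adjusted 0.0357). In both pairs the first gene, Tnfrsf4 or Tnfrsf8, already separated the groups in CPM, and the second was not called and varied little. The p-values of these ratios therefore add little to those of Tnfrsf4 and Tnfrsf8. Tnfrsf18 shares 414 exon bases with Gm16008 on the opposite strand, and the strand setting of the counting is not given in the sources used here, so reads of the 2 genes cannot be told apart if strand was not used. The pair of TNF receptors, Tnfrsf1a to Tnfrsf1b, overlapped between the groups at 0.0563 ± 0.0069 and 0.0594 ± 0.0066 (SD, n = 4 each), a difference of 0.079 ± 0.12 on the log2 scale (exact permutation p = 0.543, adjusted 0.543). This difference ran from 0.00069 without DMSO replicate 2 to 0.16 without Yoda1 replicate 1.

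**Figure D4:**
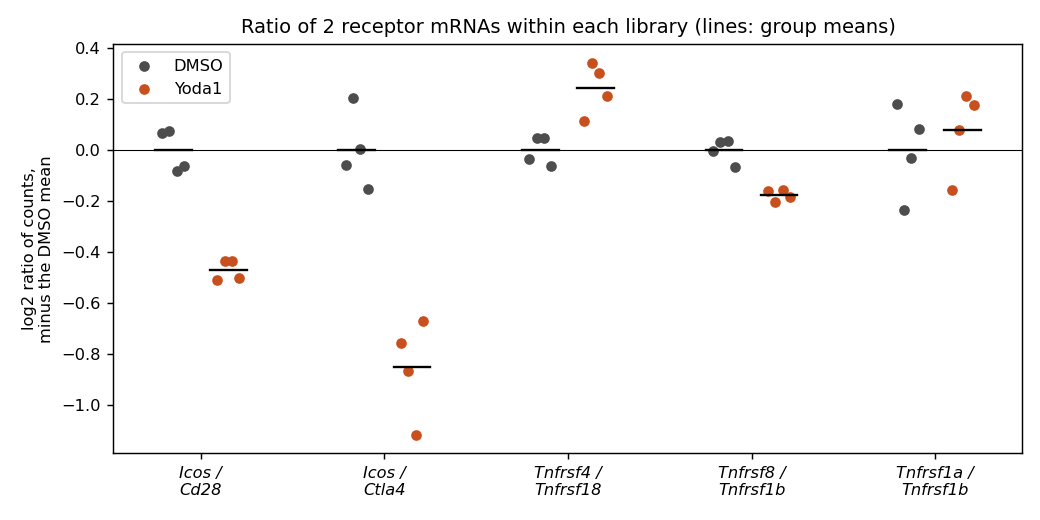
Log2 ratio of the counts of 2 receptors in each library, minus the mean of the DMSO libraries for that pair, with 1 point per library and group means as lines. The Yoda1 libraries lie below the DMSO libraries for Icos/Cd28, Icos/Ctla4 and Tnfrsf8/Tnfrsf1b, above them for Tnfrsf4/Tnfrsf18, and among them for Tnfrsf1a/Tnfrsf1b.

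Of the nearest protein-coding neighbours other than Ctla4 and the receptors themselves, 0 of those tested passed the threshold by edgeR's quasi-likelihood test (3 at an unadjusted p under 0.05, and 0 with DESeq2 or limma-voom). Sdf4, which ends 232 bases before Tnfrsf4, had a difference of 0.048 on the log2 scale (edgeR adjusted p = 0.409). Vps13d beside Tnfrsf1b had 0.0058 (adjusted p = 0.964), and Park7 beside Tnfrsf9 had -0.026 (adjusted p = 0.775). Plekhg5 and Espn on either side of Tnfrsf25 had -0.19 and -0.15 (edgeR adjusted p = 0.0948 and 0.156). Pard3b beyond Icos had 0.26 (edgeR adjusted p = 0.133), and Raph1 before Cd28 had 2.7e-05 (edgeR adjusted p = 1.0).

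Ligands of the receptors were counted in the same libraries. Of 11 ligand genes, 10 were tested, 3 rose and 1 fell, and the median log2 fold change was 0.10. The share of calls to set beside this list and those below is 10.9%, that of all genes tested. The lists, too, were chosen with earlier results of these data known. Lta, which encodes lymphotoxin alpha, a ligand of both TNF receptors, changed most. It fell from 224 ± 13.7 to 128 ± 7.86 CPM (SD, n = 4 each), 0.571 times its DMSO level, or -0.81 ± 0.046 (SE) on the log2 scale (edgeR adjusted p = 6.9e-13). Tnf, the other ligand of these receptors, rose 1.12-fold from 107 ± 2.07 to 119 ± 3.20 CPM (edgeR adjusted p = 0.00691), so the genes for the ligands of Tnfrsf1a and Tnfrsf1b moved in opposite directions. Tnfsf9 (4-1BB ligand) rose 1.36-fold from 21.1 ± 0.657 to 28.6 ± 0.773 CPM (edgeR adjusted p = 1.46e-05), while its receptor Tnfrsf9 was not called.

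Fasl rose 1.47-fold from 8.79 ± 1.79 to 12.9 ± 1.33 CPM (SD, n = 4 each; edgeR adjusted p = 0.00105), although the groups overlapped. Fas ligand is also a product of NK cells and cytotoxic T cells, and of the 6 NK and ILC1 markers 3 rose in the same libraries, with the summed ranges given above, Tbx21 from 20.9 ± 2.50 to 32.1 ± 1.65 CPM (edgeR adjusted p = 3.86e-07), Eomes from 37.8 ± 1.82 to 43.8 ± 2.49 CPM (0.0111) and Prf1 from 385 ± 22.8 to 423 ± 8.85 CPM (0.0174). The 3 NK receptor genes on that list were not called, with Ncr1 at 4.42 ± 1.11 and 3.70 ± 0.782 CPM (edgeR adjusted p = 0.432), Klrb1c at 6.07 ± 0.604 and 5.28 ± 0.413 CPM (0.30) and Klra8 at 8.58 ± 1.42 and 9.89 ± 0.798 CPM (0.249). The part of such cells in the Fasl result was not tested. The remaining ligands were not called. Tnfsf8 (CD30 ligand) was at 263 ± 3.18 and 279 ± 4.80 CPM (edgeR adjusted p = 0.0984). Icosl was at 29.4 ± 2.16 and 27.1 ± 1.12 CPM (adjusted p = 0.227) and Tnfsf4 (OX40 ligand) at 24.7 ± 1.72 and 25.0 ± 1.13 CPM (adjusted p = 0.867). Cd80 was at 24.6 ± 2.35 and 26.7 ± 1.24 CPM (edgeR adjusted p = 0.306). Cd86 and Tnfsf15 (TL1A) had at most 25 and 37 counts per library (edgeR adjusted p = 0.682 and 0.468). Tnfsf18 (GITR ligand) had at most 3 counts in any library and was not tested.

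Among other receptors of the TNF family, 15 of 20 were tested, 2 rose and 2 fell, with a median log2 fold change of -0.16. Tnfrsf21 (death receptor 6) fell from 9.45 ± 1.24 to 6.28 ± 0.683 CPM (SD, n = 4 each), or -0.59 on the log2 scale (edgeR adjusted p = 0.000833), and this call was kept in each alternative. Cd27, a costimulatory receptor also found on T and NK cells, rose from 1.81 ± 0.292 to 3.18 ± 0.756 CPM (edgeR adjusted p = 0.0158), with 19 to 56 counts per library and overlapping groups. Its call was lost without DMSO replicate 4 (adjusted p = 0.0546) or Yoda1 replicate 1 (0.0619). Relt (-0.36 on the log2 scale, edgeR adjusted p = 0.0222) and Tnfrsf11b, the soluble decoy osteoprotegerin (0.36, adjusted p = 0.0292), were not called by DESeq2, with adjusted p of 0.0531 and 0.0575. Relt was also lost without DMSO replicate 1 (0.0611), DMSO replicate 4 (0.0506) or Yoda1 replicate 2 (0.0721), and Tnfrsf11b when any library other than DMSO replicate 1 or Yoda1 replicate 4 was left out, with adjusted p of up to 0.133 without DMSO replicate 2.

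Of 15 other immunoglobulin family costimulatory and inhibitory receptors, 13 were tested, 4 rose and 0 fell by edgeR's quasi-likelihood test (0 lower also at an unadjusted p under 0.05 and with DESeq2 or limma-voom), with a median log2 fold change of 0.11. Ctla4 rose 1.595-fold from 15.7 ± 1.44 to 25.0 ± 2.98 CPM (SD, n = 4 each; edgeR adjusted p = 1.55e-06). Pdcd1, which encodes PD-1, rose 1.25-fold from 139 ± 9.95 to 174 ± 3.61 CPM (edgeR adjusted p = 4.03e-06). The paper also measured both proteins by flow cytometry after Yoda1. It reports a subtle rise of PD-1 and does not name CTLA-4 among the altered markers. Slamf7 rose 1.24-fold (edgeR adjusted p = 0.00168). Cd226, an activating receptor, rose 1.12-fold (adjusted p = 0.0362), a call that was lost with DESeq2 (0.0674), library size alone (0.0699) and upper-quartile factors (0.0856), and also when any library other than DMSO replicate 4 or Yoda1 replicate 1 was left out, with adjusted p of up to 0.139 without DMSO replicate 2.

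Downstream of the TNF family receptors, 31 of 32 adaptor and death signalling genes were tested, 7 rose and 0 fell by edgeR's quasi-likelihood test (3 lower at an unadjusted p under 0.05, and 0 with DESeq2 or limma-voom), with a median log2 fold change of 0.039. Tnfaip3, which encodes the ubiquitin-editing inhibitor A20, rose 1.32-fold from 250 ± 14.4 to 330 ± 10.4 CPM (SD, n = 4 each; edgeR adjusted p = 1.43e-08). Traf1, an adaptor of OX40, 4-1BB and CD30, rose 1.13-fold from 192 ± 3.57 to 217 ± 8.32 CPM (edgeR adjusted p = 0.00222). Traf5, an adaptor of OX40 and CD30, rose 1.61-fold from 2.53 ± 0.475 to 4.08 ± 0.568 CPM (edgeR adjusted p = 0.00939). Traf4, Birc3 and Cflar, the last encoding the caspase-8 inhibitor c-FLIP, rose by 0.22, 0.13 and 0.13 on the log2 scale (edgeR adjusted p = 0.0161, 0.0180 and 0.0238). Birc3 and Cflar were not called with library size alone (adjusted p = 0.0502 and 0.0583) or upper-quartile factors (0.0740 and 0.0842). Traf4 was lost without DMSO replicate 2 (0.0784) or Yoda1 replicate 3 (0.0633), Birc3 without Yoda1 replicate 2 (0.0559), and Cflar without DMSO replicate 1 (0.0602) or Yoda1 replicate 1 (0.0744), 2 (0.0898) or 4 (0.0570). Without Yoda1 replicate 2 the number called fell to 4.

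For Icos and Cd28 signalling, 25 of 25 genes were tested, 4 rose and 3 fell, with a median log2 fold change of 0.0035. Pik3cd, the leukocyte catalytic subunit of phosphoinositide 3-kinase, fell from 322 ± 5.46 to 273 ± 3.59 CPM (SD, n = 4 each; edgeR adjusted p = 9.19e-06). Its regulatory partner Pik3r1 fell by 0.20 on the log2 scale (edgeR adjusted p = 0.00664), and Pik3ca, another catalytic subunit, rose by 0.15 (edgeR adjusted p = 0.00531). Prkcq, which encodes protein kinase C theta, a kinase of the CD28 pathway to NF-kB, fell from 21.4 ± 2.61 to 14.4 ± 1.10 CPM, or -0.57 on the log2 scale (edgeR adjusted p = 2.26e-05). Fyn and Malt1 rose by 0.14 and 0.19 on the log2 scale (edgeR adjusted p = 0.0107 and 0.0123). Malt1 was not called without DMSO replicate 2 (adjusted p = 0.0641) or Yoda1 replicate 1 (0.0627).

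Of 11 RNA decay factors that act on Icos, Tnfrsf4 or AU-rich mRNAs, all were tested and 1 rose, or 3 were called without DMSO replicate 1 and 2 without Yoda1 replicate 2. Over all genes tested 10.9% were called, and 1 of 11 is near that share. Zfp36, which encodes TTP, rose 1.34-fold from 12.8 ± 1.66 to 17.2 ± 1.23 CPM (SD, n = 4 each; edgeR adjusted p = 0.00138). Rc3h1 and Rc3h2, whose proteins are known to bind Icos mRNA, were at 106 ± 14.6 and 104 ± 17.6 CPM and at 81.0 ± 12.9 and 79.4 ± 13.6 CPM (edgeR adjusted p = 0.936 and 0.942). Both groups of each gene overlapped. These 2 genes were named after their values were seen. Of 8 receptor shedding genes, 7 were tested and 2 rose, Adam10, a protease that cleaves CD30 and other receptors (0.15 on the log2 scale, edgeR adjusted p = 0.00886), and Rhbdf2, a partner of the protease ADAM17 (0.16, adjusted p = 0.0172). Rhbdf2 was not called with upper-quartile factors (adjusted p = 0.0566) or without DMSO replicate 2 (0.0519), DMSO replicate 4 (0.0529) or Yoda1 replicate 4 (0.0641).

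NF-kB response genes, many of which TNF family receptors can induce, gave the most calls. Of 22 genes, 21 were tested, 13 rose and 0 fell by edgeR's quasi-likelihood test (1 lower at an unadjusted p under 0.05, and 0 with DESeq2 or limma-voom), and their median log2 fold change was 0.14, beside -0.0053 for all genes tested. Over all genes tested 10.9% were called. The number called on this list was 11 with library size alone and 10 with upper-quartile factors or without Yoda1 replicate 4. The list holds Tnfaip3, Traf1 and Birc3, which the adaptor list also holds. Rel, which encodes the c-Rel subunit, rose 1.72-fold from 17.9 ± 1.03 to 30.7 ± 2.43 CPM (SD, n = 4 each; edgeR adjusted p = 2.29e-09). Nfkb1 rose 1.16-fold from 852 ± 19.3 to 991 ± 16.7 CPM (edgeR adjusted p = 3.46e-05) and Nfkbib, an inhibitor of NF-kB, 1.18-fold (edgeR adjusted p = 0.000121). Bcl2a1b and Bcl2a1d, survival genes, rose 1.30-fold and 1.29-fold (edgeR adjusted p = 0.000893 and 0.00197), but they are near-identical copies and their separate values are uncertain. At the protein level, the paper reports unaltered phosphorylation of the NF-kB subunit P65 in ILC2s after Yoda1. Whether TNF family receptors had a part in these mRNA changes was not tested.

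**Figure D5:**
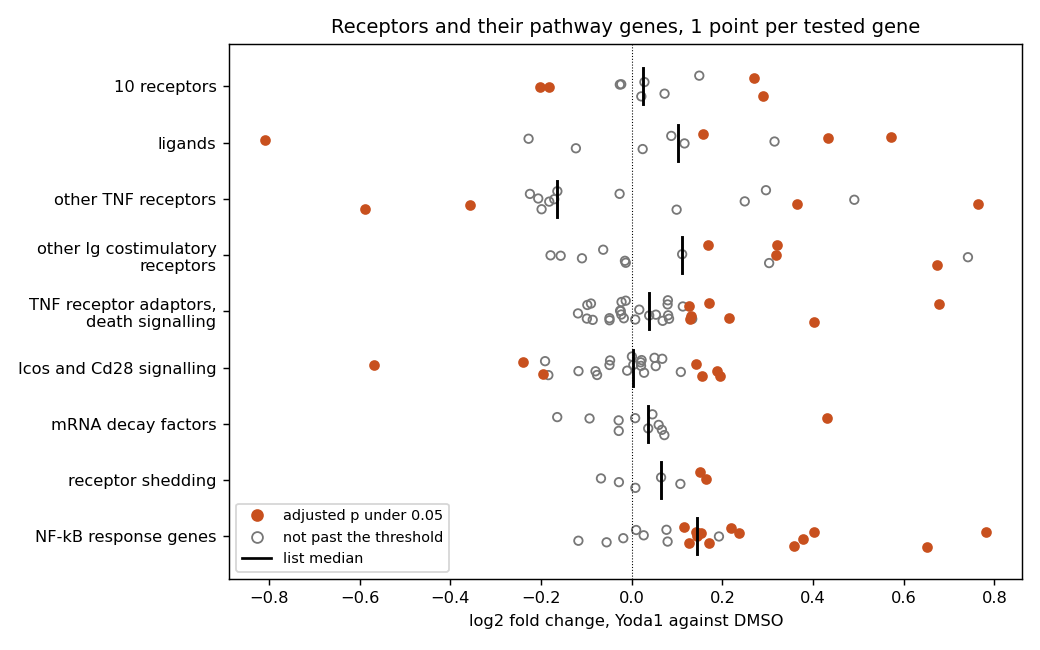
Log2 fold change of each tested gene, Yoda1 against DMSO, for the 10 receptors and 8 lists of pathway genes, with filled points past an adjusted p of 0.05, open points not past it, and the list median as a line. The receptors spread to both sides of 0, from -0.20 to 0.29, and in the NF-kB list all 13 called genes lie to the right.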

How the data were processed

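Poly(A) mRNA of 8 cultures was sequenced with a directional kit. For each library the authors deposited raw counts, whole numbers of reads for every gene symbol. The submitters' processing notes name TopHat and mm10 (GRCm38), and the methods list BBMap, Cufflinks and Cuffdiff after FastQC and FASTX Trimmer. Versions, gene annotation and whether strand was used are not given in the sources used here. From the counts, 12239 genes passed filterByExpr (minimum count 10, minimum total 15) in edgeR 4.0.16 under R 4.3.3, libraries were scaled by TMM, and Yoda1 was compared with DMSO by the robust quasi-likelihood test, where p-values were adjusted by Benjamini-Hochberg over all of them, with a threshold of 0.05. Replicates were chi-square checked and all pairs differed beyond counting noise. The code was tested on simulated data. Single values were compared by a two-sided exact permutation test over the 70 assignments, and count ratios used a prior count of 0.5. Lengths and positions came from GENCODE M21, in which 95.5% of symbols were matched, and promoters from RefSeq. Standard errors, SDs and p-values cover the spread between libraries.

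The receptors and gene lists were chosen with earlier results of these data known. Named were all 10 receptors, their ligands, tested protein-coding neighbours, and of each list the called genes, at most the 6 with the smallest adjusted p. Alternatives were DESeq2 1.42.0, library size alone, upper-quartile factors, no filter, at least 10 counts in every library, limma-voom (limma 3.58.1), the replicate number as a block, each library left out, a prior count of 2 for ratios and the longest coding transcript as length. Leaving out DMSO replicate 1 and Yoda1 replicate 3 together was added after the data were seen.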

Additional observations from a re-analysis of the deposited data

Results flagged for a closer look

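Within the Yoda1 group, Tnfrsf8 in replicate 4 was at 144.6 CPM, while the nearest of the other 3 libraries was at 148.1 CPM, a gap that made up most of the group's small range. Of 30 groups of 4 values examined in this way (the 10 receptors and 5 ratios, in each treatment), this was the only 1 to stand out, and chance alone gives about 1 in 20. All 4 values lay below the DMSO libraries.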

How the results depend on the processing

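The calls of Icos, Cd28, Tnfrsf4 and Tnfrsf8 kept their direction and side of the threshold under all 7 other settings, with each of the 8 libraries left out, and without DMSO replicate 1 and Yoda1 replicate 3. With the replicate block, 966 genes in place of 1331 were called, the same 4 receptors were called, and 4 in place of 7 adaptor genes were. Of the named genes, Cd226 (adjusted p = 0.0637), Birc3 (0.0502) and Cflar (0.0640) were not called with it. Without DMSO replicate 1 and Yoda1 replicate 3 together, Relt (edgeR adjusted p = 0.0918), Cd226 (0.0819) and Traf4 (0.0663) were not called. Same-numbered libraries did not deviate together (r from -0.028 to 0.071), so the numbers were not taken to pair the samples. For the ratios, differences of same-numbered libraries gave -0.47, -0.85, 0.24, -0.18 and 0.079, where an exact sign-flip test cannot go below 0.125. Genes lower in Yoda1 numbered 592, but 958 with upper-quartile factors and 367 to 677 with a library left out (lowest without DMSO replicate 2, then 374 without Yoda1 replicate 4). Called other TNF receptors numbered 4, but 2 with DESeq2 and 6 with no filter. They numbered 5 with upper-quartile factors, limma-voom, the replicate block or at least 10 counts in every library. With a library left out they numbered 2 to 5 (2 without DMSO replicate 4 or Yoda1 replicate 1), and adaptor genes 4 to 7. Decay factors numbered 2 with library size alone, upper-quartile factors or no filter, 1 to 3 with a library left out, and 3 without DMSO replicate 1 and Yoda1 replicate 3. Shedding genes numbered 1 with upper-quartile factors and 1 to 2 with a library left out. Among receptors not called, the log2 fold change of Tnfrsf9 turned to -0.00052 with library size alone and -0.0095 with upper-quartile factors and ran from -0.0057 to 0.036 with a library left out (-0.027 without DMSO replicate 1 and Yoda1 replicate 3), that of Tnfrsf18 turned to -0.0026 with upper-quartile factors, and that of Tnfrsf25 ran from -0.049 to 0.0085. Differences of mean log2 CPM turned likewise, to -1.4e-05 and -0.0090 for Tnfrsf9 and -0.0023 for Tnfrsf18. For Fas that difference was 0.13 with library size alone and 0.12 with upper-quartile factors, each with an exact permutation p of 0.0857. The longest coding transcript as length gave, in CPM per kb, 4.64 for Cd28, 55.1 for Tnfrsf4, 74.8 for Tnfrsf9, 196 for Tnfrsf18, 64.0 for Tnfrsf25, 5.01 for Tnfrsf1a and 33.9 for Fas. The cause of these shifts was not tested. The order of the middle receptors turned with it. Low counts widen the intervals of Tnfrsf1a (115 to 226 counts per library) among the receptors and of genes such as Cd27 and Cd86 among the lists.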
